A study of Mus musculus with 10 samples.

Results

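The genes described here are the Klhl, Kbtbd, Kctd and Btbd families, which hold most of the adaptors of cullin-3 ubiquitin ligases that are named by family and number. They were taken as every protein-coding gene of the table whose symbol is one of these 4 family names followed by a number. The rule found 78 of 24888 genes (35 Klhl, 9 Kbtbd, 22 Kctd and 12 Btbd), and it used no measured value. Poly(A) RNA of hearts was sequenced from 5 mice with cardiac overexpression of SPOP (SPOP_CKI, labelled with the genotype CKI and made with αMHC-Cre) and from 5 controls (Cre_control, titled WT and labelled with the genotype Myh6Cre). All animals were labelled male, aged 8 to 10 weeks and under sham conditions. Cre was driven by the promoter of the cardiomyocyte gene Myh6, and the control mice carried it too. The series title places the comparison in pathological cardiac hypertrophy and heart failure, and the question taken up here is how the transcripts of the other adaptor families stood in hearts with an excess of one adaptor, SPOP.

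A cullin-3 ligase is assembled from the scaffold Cul3, the RING protein Rbx1 and an adaptor that carries a BTB domain. The BTB domain binds Cul3, and a second domain of the adaptor holds the substrate to be ubiquitinated. In Klhl and Kbtbd proteins that second domain is a kelch propeller, and SPOP itself uses a MATH domain. Kctd proteins form rings around a BTB domain related to that of potassium channels, and some of them act without cullin-3. Several kelch adaptors are muscle proteins, and mutations of Klhl40, Klhl41 or Kbtbd13 cause nemaline myopathy.

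Values are scaled reads, that is, reads per gene divided by the library's size factor, and fold changes are differences of mean log2(scaled reads + 1), SPOP_CKI minus Cre_control. A gene is called when limma, fitted over all 14212 tested genes, gave a Benjamini-Hochberg adjusted p under 0.05. Libraries held 15316293 to 17114869 reads. Spop itself was at 25308 to 40631 scaled reads in SPOP_CKI and 3078 to 3726 in Cre_control, as the labels state. SPOP_CKI replicate 3 stood apart: its median correlation with its own group was 0.819, against 0.914 to 0.928 for the other SPOP_CKI libraries and 0.965 to 0.973 for the controls, and 973 genes with at least 10 scaled reads in every other library were at 0 there. Of these genes, 5 were adaptors (Klhl38, Klhl11, Kctd7, Kctd11 and Kctd15). At 0 counts this library allows up to 2.63 scaled reads (3 reads, counting error only). A further point against the labels is that SPOP_CKI replicates 1 and 3 and Cre_control replicate 5, all labelled male, held 7185, 7511 and 4190 reads of the female-specific Xist and 0 of Y-linked genes, whereas the other 7 held 0 to 5 Xist reads and 2589 to 3960 Y-linked reads. The calls without these libraries are given with the counts below, and the fold changes of the called genes without the libraries with Xist reads after the last of them. The labels give each animal no more than a repeat number, and the tests therefore rest on the spread between libraries, which may be technical in part.

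Cardiomyocyte markers were present in every library, with a summed level of 364557 to 678853 in SPOP_CKI and 621968 to 801973 in Cre_control (1 of 10 higher, 3 lower). Activated fibroblast markers summed to 2440 to 34901 against 717 to 1529 (3 of 5 tested higher), and macrophage markers to 4872 to 23451 against 5088 to 8451 (2 of 6 higher). Endothelial markers summed to 16120 to 21649 against 20838 to 24892 (2 of 6 lower), and erythroid markers to 4168 to 7772 against 12559 to 25994 (3 of 3 lower). Atrial markers (Myl4, Myl7 and Sln) were low and uneven, with sums of 0 to 769 against 17.2 to 2980, and the 1 tested did not pass. They were highest in Cre_control replicate 1 (2980) and SPOP_CKI replicate 1 (769). How much atrial tissue each library held was not tested. In RNA of heart tissue, fewer cells of a type and less RNA per cell cannot be told apart.

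Promoters of RefSeq (250 bases before to 50 after a RefSeq start, GRCm38.p6) were at hand for 60 of the 78 adaptors. A MEF2 site, the A/T-rich element bound by the muscle transcription factors of that name, was searched on both strands and lay in 3 of the 60 (Kbtbd12, Klhl33 and Klhl41), or 5.00%, against 3.70% of 27025 genes. All 3 belong to the muscle kelch list below, of which 7 genes had a promoter. The E-box CAGCTG, the core of the sites of myogenic bHLH factors, lay in 16 of the 60 (26.7%, against 18.3% of all genes), and the estrogen-related receptor half-site AAGGTCA in 0 of 60 (5.38% of all genes). The 160 bases before the start are printed for 4 muscle kelch genes, chosen after the motif matches were seen to show the MEF2 element of 3 genes and, beside them, Klhl40, the close partner of Klhl41, which holds a CAGCTG box and no MEF2 match. Capitals mark the MEF2 site and the CAGCTG box, and each run reads 5′ to 3′ on the strand of the gene.
Klhl33, chr14:50897484-50897643, minus strand: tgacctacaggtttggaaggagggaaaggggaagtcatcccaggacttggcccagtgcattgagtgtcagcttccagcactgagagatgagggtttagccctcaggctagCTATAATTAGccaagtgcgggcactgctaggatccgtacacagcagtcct
Kbtbd12, chr6:88627430-88627589, minus strand: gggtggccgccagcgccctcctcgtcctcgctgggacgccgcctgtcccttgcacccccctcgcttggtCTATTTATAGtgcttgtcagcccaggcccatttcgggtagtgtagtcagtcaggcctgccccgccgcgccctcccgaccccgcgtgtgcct
Klhl41, chr2:69669960-69670119, plus strand: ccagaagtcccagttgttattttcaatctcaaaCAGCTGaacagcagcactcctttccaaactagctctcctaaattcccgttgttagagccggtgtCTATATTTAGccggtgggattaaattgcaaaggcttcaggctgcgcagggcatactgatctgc
Klhl40, chr9:121777447-121777606, plus strand: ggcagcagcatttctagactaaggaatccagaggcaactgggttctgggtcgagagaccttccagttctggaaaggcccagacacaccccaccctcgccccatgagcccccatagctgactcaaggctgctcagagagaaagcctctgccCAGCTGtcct
The MEF2 match begins 50 bases before the start in Klhl33, 63 in Klhl41 and 91 in Kbtbd12. The RefSeq start used for Kbtbd12 lies inside the gene as deposited (88545114 to 88637950, minus strand). Of the genes that hold it, Klhl33 was lower in SPOP_CKI and the other two did not pass the test described below. A match of letters is a description and no sign of binding.

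Of the 78 adaptors, 67 had at least 10 scaled reads in at least 5 libraries and were tested. The other 11 were near the limit of detection, with means of 0.212 to 8.08 scaled reads and no single value above 16.3 (Kctd4, Kctd8, Kctd14, Kctd16, Kctd19, Klhl10, Klhl14, Klhl35, Kbtbd6, Btbd16 and Btbd18). Among the 67, 4 rose in SPOP_CKI (Klhl28, Klhl6, Btbd10 and Kbtbd8) and 8 fell (Klhl33, Klhl38, Klhl21, Btbd2, Kctd13, Klhl22, Klhl24 and Btbd6). That is 17.9% of the tested adaptors, against 22.3% of all 14212 tested genes, of which 10.0% were higher and 12.3% lower. The share called among the adaptors was thus near that of the whole table, and which of the 2 was larger depended on the setting. Without Cre_control replicate 1 it was 16.4% of the adaptors against 13.8% of all genes, without Cre_control replicate 4 16.4% against 13.9%, and with GC centring 19.4% against 18.5%. Without SPOP_CKI replicate 3 it was 25.4% against 31.0%, and with DESeq2 25.4% against 29.1%. The median fold change was 0.03 on the log2 scale over the 67 and −0.11 over all genes tested (0.03 over all genes after quantile normalization). The split of 4 higher and 8 lower became 8 and 9 with DESeq2 on recovered reads and 6 and 7 with GC centring. In the authors' deposited table, where 23.1% of the 17432 genes with an adjusted p other than 1 were called, 14 adaptors were called: these 12, Klhl3 (lower) and Klhl41 (higher).

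**Figure D1:**
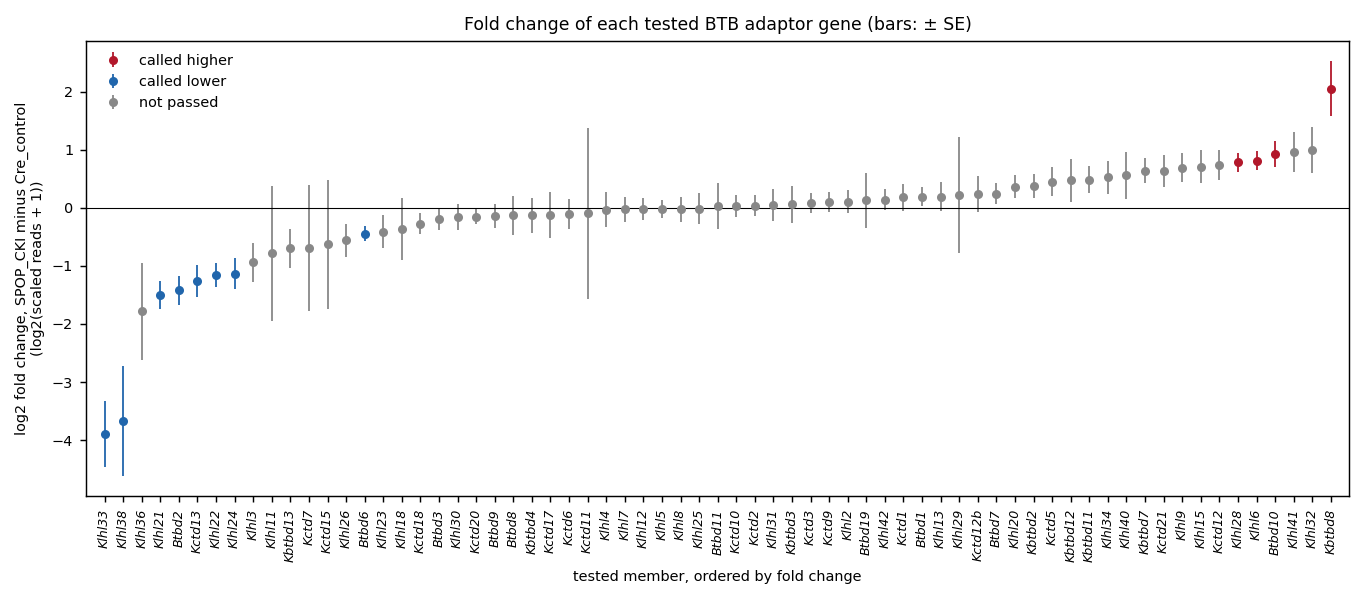
Log2 fold change (SPOP_CKI minus Cre_control, on log2(scaled reads + 1)) of each of the 67 tested adaptor genes in order of size, with bars of ± 1 SE. The 4 genes that rose and the 8 that fell are coloured, most other points lie within 0.5 of 0, and the widest bars belong to genes at or near 0 in SPOP_CKI replicate 3.

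All 12 called adaptors had groups that did not overlap, and Kbtbd13, whose SPOP_CKI values were all lower, was the thirteenth such gene of the 67, while 21.3% of all tested genes had no overlap. For each of the 12, p was 0.0079 in an exact permutation test (two-sided), which is the lowest value that 252 arrangements of 5 against 5 libraries can give. Groups that do not overlap always give that value, so it adds no separate support. Without SPOP_CKI replicate 3 all 12 remained called. When the libraries with Xist reads were left out 11 did, Btbd6 being the exception. By family, 2 Klhl genes rose and 5 fell of 32 tested, and 1 Btbd gene rose and 2 fell of 10. Of 8 Kbtbd genes 1 rose, and of 17 Kctd genes 1 fell. Over all tested genes 10.0% were higher and 12.3% lower. With all libraries no Kctd gene passed as higher with limma as fitted here or with edgeR, and 1 did with DESeq2 (Kctd12). An unadjusted limma p under 0.05 was found for 3 of the 17, against 5261 of all 14212 tested genes. Other limma settings called some higher, among them Kctd12 with quantile normalization, Kctd11 without SPOP_CKI replicate 3 and Kctd17 with GC centring (limma adjusted p = 0.0376, 0.00847 and 0.0315). Array weights called 3 Kctd genes higher.

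The muscle kelch genes were examined as a list of 10 (Klhl24, Klhl30, Klhl31, Klhl33, Klhl34, Klhl38, Klhl40, Klhl41, Kbtbd12 and Kbtbd13), all of them tested. Of these, 3 fell (Klhl33, Klhl38 and Klhl24) and 7 did not pass, against 12.3% of all genes lower. The median of the list was −0.05. The 3 that fell stayed called under each alternative and without each library in turn.

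Klhl33 (chromosome 14, 50888582 to 50897507, minus strand, mm10), a kelch gene whose substrate is not established, moved furthest of all the adaptors. Its scaled reads were 60.5, 9.91, 84.1, 46.2 and 94.5 in SPOP_CKI replicates 1 to 5, and 618, 726, 897, 1329 and 347 in Cre_control 1 to 5. The highest SPOP_CKI library thus lay far below the lowest control. The fold change was −3.89 (SE 0.56, limma adjusted p = 0.00139), a 14.9-fold lower level, from 783 ± 365 to 59.0 ± 33.4 (SD, n = 5 each). Without SPOP_CKI replicate 3 it was −4.10, and −4.55 when the libraries with Xist reads were left out (limma adjusted p = 0.00102 and 0.00183).

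Klhl38 (chromosome 15, 58314573 to 58324169, minus strand) was at 27.1, 14.9, 0, 22.7 and 94.5 scaled reads in SPOP_CKI and 196, 158, 190.5, 285 and 193 in Cre_control. The 0 stood in SPOP_CKI replicate 3, and the other 4 SPOP_CKI libraries were also under every control. Its fold change of −3.67 (SE 0.95, limma adjusted p = 0.0187) was 12.7-fold on the log2(value + 1) scale. The ratio of the group means was 6.42, and without SPOP_CKI replicate 3 the fold was 6.36 (−2.67, adjusted p = 0.00102). An antisense transcript, Gm15943 (mean 14.8 scaled reads), covers 65.4% of its exonic bases, and without a stated strand setting reads of the 2 genes cannot be told apart there. In all, 24 adaptors share exonic bases with another annotated gene, and of the other called ones the largest share was that of Klhl21, 20.5% with Gm9768 (mean 2.15 scaled reads).

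Klhl24 (chromosome 16, 20097542 to 20129221, plus strand), which targets intermediate filament proteins and whose mutations cause skin fragility and cardiomyopathy, was the most highly read adaptor of the control hearts. It stood at 5469, 6717, 8866, 5660.3 and 6122 scaled reads in Cre_control and at 2290.3, 1794, 3390.2, 3102 and 5156 in SPOP_CKI. SPOP_CKI replicate 5 came closest to the controls without reaching them. The mean fell from 6567 ± 1372 to 3147 ± 1290.3 (SD, n = 5 each), a fold change of −1.13 (SE 0.27, limma adjusted p = 0.0125).

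The other 7 muscle genes did not pass, with 5 fold changes above 0 and 2 below. Klhl41, a sarcomere-associated kelch protein that stabilises nebulin, was at 2674, 6380.4, 1640.3, 1489 and 2173 in SPOP_CKI and 1419, 1152, 1263, 1021 and 1542 in Cre_control. Only SPOP_CKI replicate 4 overlapped the controls, and replicate 2 was more than any other library by a wide margin. The fold change was 0.96 (SE 0.34) and did not pass (limma adjusted p = 0.0641), whereas edgeR and DESeq2 on the recovered reads (adjusted p = 0.0358 and 0.0075) and the authors' deposited table (1.17, adjusted p = 0.0121) called it higher, as did limma without SPOP_CKI replicate 3 (1.11, adjusted p = 0.0273). Without SPOP_CKI replicate 2 Klhl41 was at 0.62 and with GC centring at 0.77, and neither passed (limma adjusted p = 0.05445 and 0.16). Its level per kb of transcript ranked 3 among the adaptors in the controls (506) and 1 in SPOP_CKI (1135), a description with no test.

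Klhl40, which stabilises nebulin and leiomodin-3 in the thin filament, was at 332, 441, 82.3, 179 and 359 in SPOP_CKI and 152, 119, 168, 186 and 196 in Cre_control. SPOP_CKI replicate 3 was the lowest of all 10 libraries and replicates 1, 2 and 5 the highest. With all libraries the fold change was 0.56 (SE 0.40, limma adjusted p = 0.329), without SPOP_CKI replicate 3 it was 0.94 (adjusted p = 0.0143) and without the libraries with Xist reads 0.98 (adjusted p = 0.0351). Without SPOP_CKI replicate 2 it was 0.34 and did not pass (limma adjusted p = 0.5455). Klhl31 (0.05), Klhl30 (−0.16), Klhl34 (0.53) and Kbtbd12 (0.47) did not pass (limma adjusted p from 0.196 to 0.908). Kbtbd13, at 19.8 to 48.4 in SPOP_CKI and 49.3 to 63.7 in Cre_control, differed by −0.70 (SE 0.34, limma adjusted p = 0.157). Klhl34 (1.18) and Klhl40 (1.26) passed as higher with GC centring (limma adjusted p = 0.0237 and 0.00666). With all libraries and no such centring or weights, no muscle kelch gene passed as higher with limma, and 1 did with edgeR and with DESeq2 (Klhl41). An unadjusted limma p under 0.05 was found for 4 of the 10, against 5261 of all 14212 tested genes. Skeletal muscle markers were low in all libraries, with a summed level of 26.0 to 169 in SPOP_CKI and 27.2 to 75.9 in Cre_control (5 of the 8 listed markers were in the table).

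**Figure D2:**
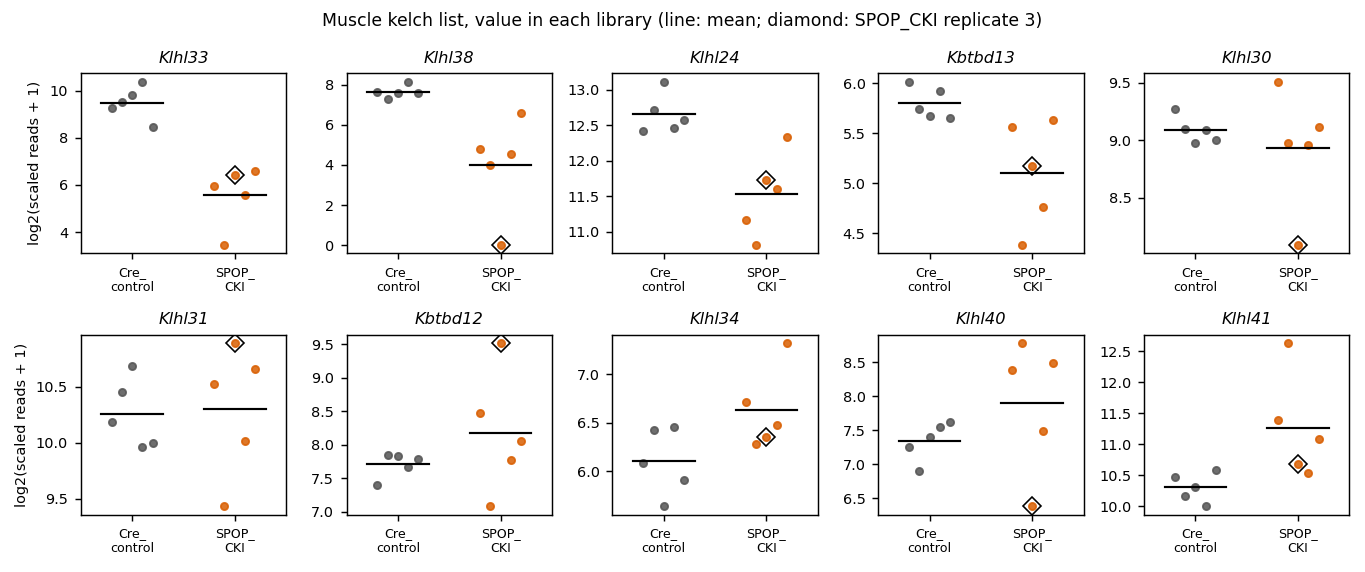
Log2(scaled reads + 1) of the 10 muscle kelch genes in each library of Cre_control and SPOP_CKI, with a line at each group mean and SPOP_CKI replicate 3 as a diamond. Klhl33, Klhl38 and Klhl24 separate the groups, Klhl41 and Klhl40 are spread within SPOP_CKI, and the diamond of Klhl38 lies at 0.

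Adaptors of mitotic kinases formed a list of 5 (Klhl9, Klhl13, Klhl18, Klhl21 and Klhl22), of which 2 fell and 3 did not pass, against 12.3% of all genes lower. Klhl21 (chromosome 4, 152008803 to 152017680, plus strand), which brings Aurora B to cullin-3 during cell division, was at 834, 452, 342, 584 and 751 scaled reads in SPOP_CKI and 1706, 1645, 1596, 1958 and 1200.4 in Cre_control. Every SPOP_CKI library was below every control, and the fold change was −1.51 (SE 0.24, limma adjusted p = 0.00222). Klhl22, an adaptor for Plk1 and for the growth regulator Depdc5, was at 138, 254, 190.0, 287 and 202 in SPOP_CKI and 482, 459, 461, 532 and 395 in Cre_control. Its groups did not overlap, with a fold change of −1.16 (SE 0.20, limma adjusted p = 0.0033). Klhl9, a further Aurora B adaptor, had the opposite sign at 0.69 (SE 0.26, limma adjusted p = 0.0719), with 1295 to 2816 in SPOP_CKI and 707 to 1505 in Cre_control. It passed with DESeq2 (adjusted p = 0.034) and in limma without SPOP_CKI replicate 2 (0.85, adjusted p = 0.0319). Klhl13 was at 0.19 and Klhl18 at −0.36 (limma adjusted p = 0.596 and 0.648). Aurkb and Plk1, the mitotic kinases themselves, did not reach the level for testing.

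Btbd1 and Btbd2, a close pair that binds topoisomerase I, were compared next. Btbd1, with the highest level per kb of all the adaptors in the controls (709), was at 2229.5 to 3539 scaled reads in SPOP_CKI and 2053 to 2652 in Cre_control (0.19, SE 0.16, limma adjusted p = 0.405). Btbd2 (chromosome 10, 80642617 to 80657071, minus strand) was at 375, 321, 149.8, 339.8 and 393 in SPOP_CKI and 907, 837, 829.9, 804 and 663 in Cre_control. SPOP_CKI replicate 3 was the lowest, and the other 4 still lay below all controls. Its fold change was −1.42 (SE 0.25, limma adjusted p = 0.00312), and −1.17 without SPOP_CKI replicate 3 (adjusted p = 0.000171). Btbd2 has the higher GC content of the pair (61.6% against 45.0%), and with GC centring Btbd2 was at −0.54 (adjusted p = 0.0454) and Btbd1 at 0.0035. Top1, which encodes topoisomerase I, rose (0.86, SE 0.16, limma adjusted p = 0.00404).

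Kctd13 and Kctd10 are adaptors that send the GTPase RhoA to degradation. Kctd13 (chromosome 7, 126928879 to 126945631, plus strand) was at 38.8, 74.3, 39.4, 46.2 and 54.3 in SPOP_CKI and 123, 115, 95.2, 177 and 102 in Cre_control. The groups did not overlap, and the fold change was −1.26 (SE 0.28, limma adjusted p = 0.00949). That call was lost with GC centring (−0.68, limma adjusted p = 0.109). Kctd10, at 502 to 779 against 432 to 799.7, differed by 0.03 (SE 0.19, limma adjusted p = 0.914). Rhoa was 0.34 higher (SE 0.13) and did not pass (limma adjusted p = 0.0877).

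For 5 pairs of related adaptors the log2 ratio of the members within each library was compared between the groups by an exact two-sided permutation test, with Benjamini-Hochberg adjustment over the 5. The Btbd2 to Btbd1 ratio was −1.61 ± 0.20 in Cre_control and −3.22 ± 0.75 in SPOP_CKI (SD, n = 5 each, exact permutation p = 0.0079, adjusted 0.0198). The Kctd13 to Kctd10 ratio was −2.36 ± 0.18 and −3.65 ± 0.41 (exact permutation p = 0.0079, adjusted 0.0198). Without SPOP_CKI replicate 3 these differences were −1.28 and −1.14. Klhl3 and Klhl2, which direct WNK kinases to degradation, gave −1.25 ± 0.27 and −2.30 ± 0.89 for the ratio of Klhl3 to Klhl2 (exact permutation p = 0.0317, adjusted 0.0529). The ratios of Btbd6 to Btbd3 and of Kctd15 to Kctd1 did not pass (exact permutation p = 0.262 and 0.778, adjusted 0.327 and 0.778), and the last rests on a 0 for Kctd15 in SPOP_CKI replicate 3. These ratios use the same values as the fold changes above and were not centred on GC content.

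**Figure D3:**
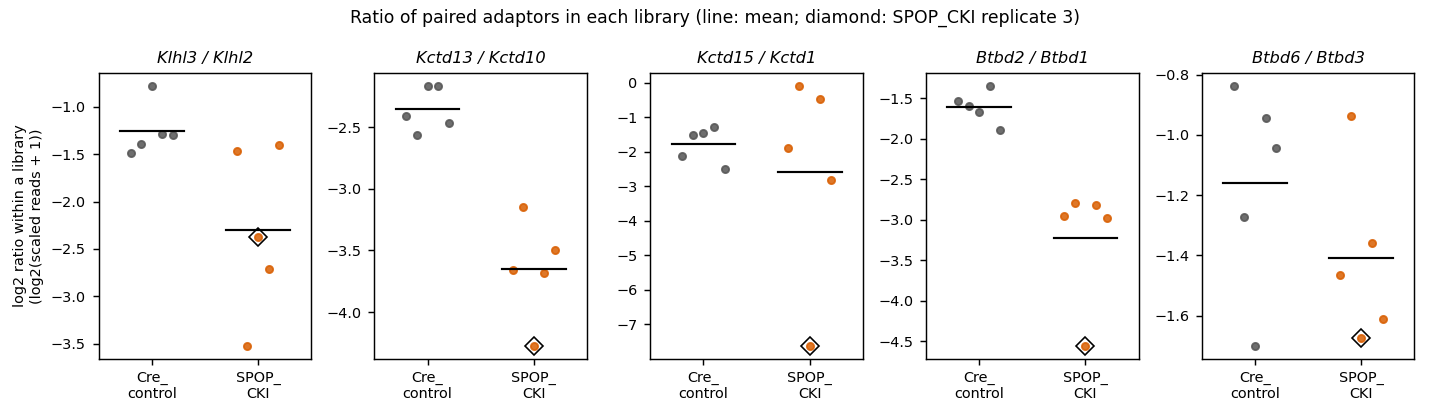
Log2 ratio of 5 pairs of related adaptors in each library of Cre_control and SPOP_CKI, with a line at each group mean and SPOP_CKI replicate 3 as a diamond. The ratios of Btbd2 to Btbd1 and of Kctd13 to Kctd10 do not overlap between the groups, and the diamond of Kctd15 to Kctd1 lies at −7.61.

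Btbd6, known for its part in neuronal differentiation, showed the smallest change among the called adaptors. It stood at 232, 254, 243, 275 and 275 scaled reads in SPOP_CKI and 370.3, 366, 325, 346 and 333 in Cre_control. The groups were tight and separate, with a fold change of −0.44 (SE 0.13, limma adjusted p = 0.0357). That call was lost when any 1 of the controls or SPOP_CKI replicate 1, 2 or 4 was left out, and the value turned to 0.11 with GC centring. Btbd3, its relative, differed by −0.19 (limma adjusted p = 0.486).

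Kbtbd8, an adaptor that acts with Nolc1 and Tcof1 in ribosome production during neural crest development, rose most. It was scarce, at 34.3, 53.7, 116, 30.5 and 86.2 scaled reads in SPOP_CKI (chromosome 6, 95117240 to 95129790, plus strand) and 10.6, 18.2, 13.6, 15.4 and 8.57 in Cre_control. SPOP_CKI replicate 3 was the highest, and the lowest SPOP_CKI library still exceeded every control. The mean went from 13.3 ± 3.82 to 64.2 ± 36.6 (SD, n = 5 each), a fold change of 2.05 (SE 0.47, limma adjusted p = 0.0113), and 1.79 without SPOP_CKI replicate 3 (adjusted p = 0.00562). Nolc1 rose too (0.58, SE 0.16, limma adjusted p = 0.0262), and Tcof1 did not pass (−0.09, limma adjusted p = 0.866).

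Klhl6, known for its role in B lymphocytes, was at 253, 326, 321, 303 and 305 in SPOP_CKI and 207, 172, 139, 178 and 164 in Cre_control. The groups did not overlap and the fold change was 0.81 (SE 0.16, limma adjusted p = 0.00619). The lymphocyte markers Cd3e, Cd79a and Ms4a1 summed to 0 to 51.2 scaled reads in SPOP_CKI and 16.3 to 46.7 in Cre_control. None of these markers reached the level for testing, and the cells that gave the Klhl6 reads were not determined. Macrophage markers were highest in SPOP_CKI replicates 2 and 4 (sums of 16517 and 23451), where Klhl6 stood at 326 and 303, and 4872 to 8067 in the other 3, where it stood at 253 to 321; their part in the change was not tested.

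Klhl28 was at 436, 359, 509, 370.3 and 543 in SPOP_CKI and 255, 277, 286, 206 and 256 in Cre_control, with no overlap and a fold change of 0.78 (SE 0.17, limma adjusted p = 0.00912). Btbd10, reported to bind the kinase Akt, was at 365, 331, 540.4, 291 and 222 in SPOP_CKI and 193, 166, 158, 193 and 174 in Cre_control. SPOP_CKI replicate 3 was highest, and the fold change was 0.92 (SE 0.22, limma adjusted p = 0.0142). With GC centring Klhl28 (0.30) and Btbd10 (0.44) did not pass (limma adjusted p = 0.167 and 0.193).

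With the libraries that held Xist reads left out, the genes that rose had fold changes of 1.81 for Kbtbd8, 0.85 for Klhl6, 0.71 for Klhl28 and 0.65 for Btbd10. Those of the genes that fell were −2.63 for Klhl38, −1.56 for Klhl21, −1.27 for Btbd2, −1.11 for Kctd13, −1.10 for Klhl24 and −0.98 for Klhl22, beside the −4.55 of Klhl33 given above (limma adjusted p from 0.000707 to 0.036 for these 11 genes). Btbd6 was at −0.39 and did not pass there (limma adjusted p = 0.0856).

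**Figure D4:**
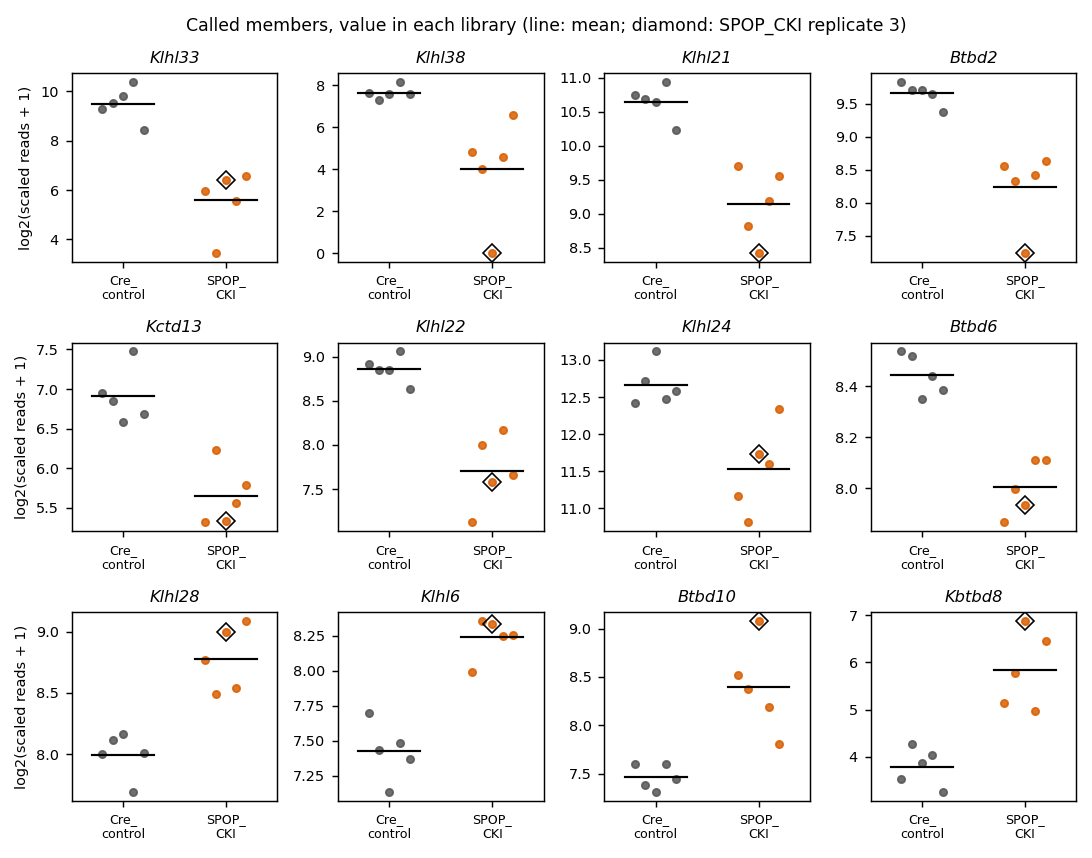
Log2(scaled reads + 1) of the 12 called adaptors in each library of Cre_control and SPOP_CKI, with a line at each group mean and SPOP_CKI replicate 3 as a diamond. In each panel the groups do not overlap, from a difference of −3.89 for Klhl33 to 2.05 for Kbtbd8.

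Among the remaining role lists, none of the WNK adaptors, the GABA-B receptor auxiliary subunits, the Hdac1 and hedgehog adaptors, the AP-2 binding Kctd genes or the Gβγ adaptors had a called member with all libraries in limma as fitted here or in edgeR. At an unadjusted limma p under 0.05 these 5 lists held 1, 1, 1, 0 and 0 genes, against 5261 of all 14212 tested genes. DESeq2 called Klhl3 and Kctd12. Other limma settings also called members of these lists, among them Klhl3, Kctd12, Kctd11 and Kctd17. Klhl3, mutated in familial hyperkalaemic hypertension, was at 29.7 to 96.8 in SPOP_CKI and 96.6 to 173 in Cre_control, a fold change of −0.94 (SE 0.34, limma adjusted p = 0.0646) that passed without SPOP_CKI replicate 3 (−0.95, adjusted p = 0.0463) and in the authors' deposited table (−0.87, adjusted p = 0.0487). Its substrate Wnk4 fell (−2.37, SE 0.22, limma adjusted p = 0.000223) and Wnk1 rose (0.85, SE 0.18, limma adjusted p = 0.00771). Kctd12, an auxiliary subunit of the GABA-B receptor, was at 448 to 849 in SPOP_CKI and 223 to 509 in Cre_control (0.74, SE 0.26, limma adjusted p = 0.0593).

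Kctd11, which restrains hedgehog signalling by degrading Hdac1, depended on 1 library. It was at 247, 783, 0, 387 and 178 in SPOP_CKI and 85.9, 139, 135, 137 and 81.5 in Cre_control. The 0 was SPOP_CKI replicate 3, and the other 4 exceeded every control. With all libraries the fold change was −0.10 (SE 1.47, limma adjusted p = 0.969), and without that library it was 1.58 (adjusted p = 0.00847). On the recovered reads of all libraries edgeR gave 1.48 and DESeq2 1.46, which did not pass (adjusted p = 0.235 and 0.315), and the ratio of the group means was 2.75. Kctd7, Kctd15 and Klhl11 were likewise at 0 in that library, and Klhl36 at 0.876 against 29.8 to 60.2 in the rest of its group. Klhl29, a scarce gene, was also at 0 there, against 11.7 to 83.4 in the rest of its group. It differed by 0.22 with all libraries and by 1.21 without that library (limma adjusted p = 0.887 and 0.0923). Without the libraries with Xist reads Klhl29 was at 1.76 (limma adjusted p = 0.026). Klhl36 differed by −1.78 (SE 0.83, limma adjusted p = 0.144) with all libraries and by −0.86 (adjusted p = 0.0396) without it.

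The secretory and signalling adaptors comprised 9 genes, 8 of them tested, of which Kbtbd8 rose and 7 did not pass, against 10.0% of all genes higher. Kbtbd7, which controls the Rac activator Tiam1, was closest at 0.64 (SE 0.22, limma adjusted p = 0.0573), and it passed with DESeq2, with quantile normalization and without SPOP_CKI replicate 2 (adjusted p = 0.0362, 0.0484 and 0.0433). Klhl12, which builds large COPII coats for collagen export, was at 305 to 568 in SPOP_CKI and 345 to 434 in Cre_control (−0.02, SE 0.19, limma adjusted p = 0.938). Klhl20, the adaptor of Dapk1, was at 0.36 (limma adjusted p = 0.203).

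Among the 9 adaptors with a mean of at least 1000 scaled reads, 2 were called (Klhl24 and Klhl21), against 22.3% of all tested genes. The other 7 were Btbd1, Klhl41, Klhl9, Klhl7, Klhl31, Kctd9 and Btbd7. Klhl7 (−0.03), Kctd9 (0.09) and Btbd7 (0.25) had standard errors of 0.17 to 0.21 (limma adjusted p from 0.358 to 0.934). Over all 55 tested adaptors without a call, 39 had a fold change within 0.5 of 0, 15 lay between 0.5 and 1 in size and 1 beyond 1 (Klhl36), with 30 positive and 25 negative. Their standard errors ran from 0.13 to 1.47 with a median of 0.26, so differences of that order were not detectable for many of them.

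Adaptor levels were more scattered in SPOP_CKI than in Cre_control. The median SD of log2 values over the 67 was 0.46 in SPOP_CKI and 0.28 in Cre_control, and 55 of the 67 had the larger SD in SPOP_CKI (82.1%, against 86.7% of all genes). Without SPOP_CKI replicate 3 the median was 0.38 and 49 of the 67 had the larger SD (73.1%, against 72.3% of all genes). The adaptors thus followed the table as a whole.

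Fold changes of the adaptors fell with the GC content of their longest transcript (Spearman rho −0.44 over 67 genes of the same libraries, a description), and the same value was found over 14201 genes. Without SPOP_CKI replicate 3 it was −0.15 for the adaptors and −0.32 for all genes. The 8 adaptors that fell had a median GC content of 55.4% and the 4 that rose of 37.7%, while the 67 together had 49.7%. With each library centred on a GC curve, 8 of the 12 were still called, and Btbd10, Btbd6, Kctd13 and Klhl28 were not. Btbd2 was then at −0.54 and Klhl21 at −0.81 (limma adjusted p = 0.0454 and 0.0183).

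**Figure D5:**
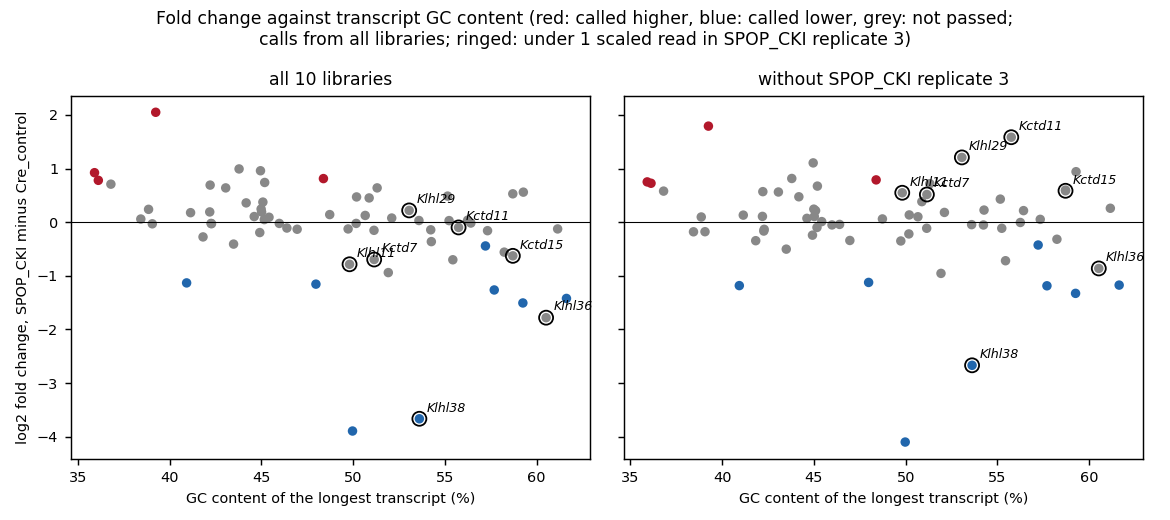
Log2 fold change (SPOP_CKI minus Cre_control) against transcript GC content (%) for the 67 tested adaptors, with all libraries on the left and without SPOP_CKI replicate 3 on the right. The 4 genes called higher lie between 35.9% and 48.4% GC and the 8 called lower between 40.9% and 61.6%. The ringed genes, under 1 scaled read in SPOP_CKI replicate 3, move up in the right panel, and rho goes from −0.44 to −0.15.

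The cullin-3 machinery was taken as 23 genes, all tested, of which 3 rose and 20 did not pass. That is 13.0%, against 10.0% of all genes higher and 22.3% called. The 3 were Cand1, which exchanges the substrate adaptors of cullin ligases, and the neddylation cofactors Dcun1d1 and Dcun1d3. Cand1 was at 1076 to 1349 in SPOP_CKI and 485 to 747 in Cre_control (0.91, SE 0.15, limma adjusted p = 0.00268). Dcun1d3 was at 335 to 389.7 and 152 to 190.5 (1.08, SE 0.14, limma adjusted p = 0.000898), and Dcun1d1 at 868 to 1266 and 379 to 672 (0.83, SE 0.18, limma adjusted p = 0.00967). Cul3 (0.14) and Rbx1 (0.26) did not pass (limma adjusted p = 0.627 and 0.562). With all libraries none of the 23 passed as lower with limma as fitted here, edgeR or DESeq2, and 1 did with array weights. An unadjusted limma p under 0.05 was found for 5 of the 23, against 5261 of all 14212 tested genes.

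Adaptors of other BTB families were set beside these as a list of 20, 19 of them tested. Of these, 3 rose (Spop, Ankfy1 and Tnfaip1) and 4 fell (Keap1, Rhobtb1, Abtb1 and Zbtb16), or 36.8% called, against 22.3% of all genes. Spop is the overexpressed gene, so its rise was set by the design and the share includes it. Tnfaip1, a RhoA adaptor related to Kctd10 and Kctd13, was 0.52 higher (SE 0.13, limma adjusted p = 0.0179), while Kctd13 fell. Keap1, the adaptor that holds the antioxidant factor Nrf2 in check, went from 927 ± 145 to 423 ± 139.9 (SD, n = 5 each; −1.21, SE 0.27, limma adjusted p = 0.0103). Rhobtb1 was at 652 to 968 in SPOP_CKI and 1961 to 2603 in Cre_control (−1.54, SE 0.16, limma adjusted p = 0.000258).

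Partners and substrates reported for the adaptors were listed as 29 genes, 25 of them tested. Of these, 4 rose (Wnk1, Gnb1, Nolc1 and Top1), 3 fell (Wnk4, Eif4ebp1 and Pik3r1) and 18 did not pass, so that 28.0% were called against 22.3% of all genes. Eif4ebp1, the translation repressor bound by Klhl25, was at 413 to 1052 in SPOP_CKI and 1274 to 3332 in Cre_control (−1.55, SE 0.30, limma adjusted p = 0.00552), while Klhl25 differed by −0.02. Pik3r1, the p85α subunit bound by Kbtbd2, differed by −0.90 (SE 0.21, limma adjusted p = 0.0122), while Kbtbd2 was 0.37 higher and did not pass (limma adjusted p = 0.204). The transcripts of Neb (0.37) and Lmod3 (−0.03), partners of Klhl40 and Klhl41, did not pass (limma adjusted p = 0.543 and 0.945). These are transcript levels, and protein was not measured. Fold changes of the cullin-3 machinery, of the other BTB adaptors (Spop apart) and of these partners are from limma with all libraries. How they change with GC centring or without SPOP_CKI replicate 3 was not examined gene by gene.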

How the data were processed

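Groups were read from the labels (genotype and title). The submitters' processing notes name mm10, featureCounts 1.5.0-p3 for counting and DESeq2 1.20.0. Aligner, annotation release and strand setting were not given in the sources used here. Each library column deposited by the authors holds a read signal scaled by a size factor, and dividing by the value of 1 read gave whole reads for 100% of values (tolerance 0.001). Per gene, the authors deposited their own log2 fold change with its p-value, raw and adjusted. Coordinates are those of the table, and GC content and exon overlaps are from GENCODE M21 (GRCm38).

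The test was limma 3.58.1 (intensity trend, robust; R 4.3.3) on log2(value + 1) over genes that reached 10 scaled reads in 5 or more libraries, two-sided. It was also run on simulated data, which held neither a GC trend between the groups nor a library like SPOP_CKI replicate 3. That run therefore does not cover these features. Alternatives were edgeR 4.0.16 (quasi-likelihood) and DESeq2 1.42.0 on recovered reads, no filter, pseudocounts of 0.5 and 4, TMM, quantile normalization, array weights, a replicate block and each library left out. GC centring (lowess span 0.3) and leaving out the 3 libraries with over 100 Xist reads were added after seeing the data. Libraries of 1 group always differed by more than sampling noise (chi-square per degree of freedom 13.7 or more). The members, lists and tests were chosen with earlier results of these data known. The rule for named genes takes Spop, every muscle kelch gene, the called members, members without a call at a mean of at least 1000 and up to 3 genes of each role list. Klhl36, Klhl29, Kctd7, Kctd15, Klhl11 and the genes named from pathway lists were chosen after their values were seen.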

Additional observations from a re-analysis of the deposited data

Results flagged for a closer look

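On the scale of log2(scaled reads + 1), a library stood apart from the other 4 of its group (a gap of over 0.71 of the group's range) for 14 of 134 groups of adaptor values. About 1 in 20 would do so for independent values of normal spread, whereas the adaptors were read in the same libraries. Of the 14, 9 were in SPOP_CKI replicate 3. It was the low one for Btbd2 (149.8 scaled reads), Klhl18 (35.9), Klhl36 (0.876), Kctd11 (0), Kctd7 (0) and Klhl11 (0), and the high one for Btbd8 (101.6), Kbtbd2 (1066) and Klhl8 (420.4). Cre_control replicate 4 was the low one for Kbtbd7 (134.6), Klhl15 (55.75) and Klhl9 (707.4). Klhl5 was high in Cre_control replicate 2 (717.7), and Klhl6 was low in SPOP_CKI replicate 1 (253).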

How the results depend on the processing

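With all libraries 4 adaptors were higher and 8 lower. The number higher was 8 with DESeq2, 10 with array weights and 7 without the libraries with Xist reads, and it ran from 4 to 7 when single libraries were left out (7 without SPOP_CKI replicate 2 and 7 without SPOP_CKI replicate 3). The number lower ran from 7 to 10 when single libraries were left out, and was 12 with array weights. In the muscle kelch list, 0 genes were higher with all libraries in limma, 1 with edgeR, 1 with DESeq2, 2 with array weights, 2 with GC centring, 1 without the libraries with Xist reads and 0 to 2 when single libraries were left out, while 3 were lower in every setting except array weights, where 4 were. Of the 12 called adaptors, Btbd6 was lost in 12 settings besides GC centring, and Btbd10, Kctd13 and Klhl28 with GC centring only. For 3 genes the sign turned in a setting where either value was called. Btbd6 was at 0.11 with GC centring. Kctd17, at −0.13 with all libraries, was at 0.72 with GC centring. Kctd11, at −0.10 with all libraries, was at 1.55 with array weights and 1.62 without the libraries with Xist reads, and ran from −0.82 to 1.58 when single libraries were left out. Sign changes of values called in neither setting were not counted. The cause of these changes was not tested, except that Kctd11 was at 0 in SPOP_CKI replicate 3. The replicate numbers were not taken to pair the hearts, since the labels state no pairing and the deviations of same-numbered libraries correlated by 0.11, 0.10, 0.16, 0.08 and 0.03. For 2 of the 5 Cre_control libraries, the SPOP_CKI library that correlated best had the same number. A replicate block called 6 adaptors higher (with Kbtbd7 and Klhl32, adjusted p = 0.0454 and 0.0477) and 7 lower (without Btbd6, adjusted p = 0.0807). The 11 adaptors under the level for testing were not compared, and at these depths low and absent expression cannot be told apart for them.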
